A study of Homo sapiens with 6 samples.

Results

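The genes described here are 40 interferon-stimulated genes and RNA sensors, taken by symbol from a table of 25702 genes listed by Entrez gene number, in which all 40 were found. They were listed as a check for an innate response to the transfected siRNA, a known possible side effect of double-stranded RNA in cells. RNA was sequenced from RMS13 cells at 72 h after transfection. RMS13 is an established human rhabdomyosarcoma line, grown from a muscle-like tumour. The siGLI1 group (3 libraries) received an siRNA against GLI1, the zinc finger transcription factor at the end of the Hedgehog pathway, and the siNT2 group (3 libraries) received a non-targeting siRNA. Both groups carried an siRNA, so a response common to both cannot be told apart from the resting level of the line. Whether the replicates were separate cultures is not in the labels, and a p-value here measures no more than the scatter of the 3 libraries of a group, possibly technical.

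Double-stranded RNA in the cytosol is recognised by RIGI and IFIH1, which signal through MAVS on mitochondria, while TLR3 recognises it in endosomes. These routes activate IRF3 and IRF7 and switch on type I interferon, which acts through its receptor on a transcription factor complex that holds STAT2 and IRF9. That complex binds the interferon-stimulated response element (ISRE) in the promoters of genes such as IFIT1, MX1, OAS1, RSAD2 and ISG15, whose products restrict viral RNA, protein synthesis and release.

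The promoters of 4 of the genes are shown because they carry the sequence that links most of the set, or, in HERC6, lack it in this window. ISG20 rose and HERC6 fell in siGLI1 cells, ISG15 gives its name to the modifier system described further on, and IFIT1 is a classical interferon target. Each runs 5′ to 3′ on the gene's strand over 300 bases, 250 before to 50 after the start site, from RefSeq on GRCh38.p14. Capitals mark matches to the ISRE core, searched as GAAA, any 2 bases and GAAA again on both strands with overlapping matches allowed. The windows are chr15:88638766-88639065 on the plus strand for ISG20, chr4:88378602-88378901 on the plus strand for HERC6, chr1:1013247-1013546 on the plus strand for ISG15 and chr10:89392373-89392672 on the plus strand for IFIT1.
ISG20: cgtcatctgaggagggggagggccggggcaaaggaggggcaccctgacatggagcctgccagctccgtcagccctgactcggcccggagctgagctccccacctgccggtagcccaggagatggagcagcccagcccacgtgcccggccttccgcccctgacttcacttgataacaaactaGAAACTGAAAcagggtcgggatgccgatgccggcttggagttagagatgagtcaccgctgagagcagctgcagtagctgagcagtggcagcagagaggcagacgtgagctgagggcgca
HERC6: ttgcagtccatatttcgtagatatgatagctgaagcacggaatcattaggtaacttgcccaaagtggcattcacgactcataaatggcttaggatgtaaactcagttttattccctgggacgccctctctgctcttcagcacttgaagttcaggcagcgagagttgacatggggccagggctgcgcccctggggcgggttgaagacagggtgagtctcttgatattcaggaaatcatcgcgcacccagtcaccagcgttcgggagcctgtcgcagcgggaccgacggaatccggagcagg
ISG15: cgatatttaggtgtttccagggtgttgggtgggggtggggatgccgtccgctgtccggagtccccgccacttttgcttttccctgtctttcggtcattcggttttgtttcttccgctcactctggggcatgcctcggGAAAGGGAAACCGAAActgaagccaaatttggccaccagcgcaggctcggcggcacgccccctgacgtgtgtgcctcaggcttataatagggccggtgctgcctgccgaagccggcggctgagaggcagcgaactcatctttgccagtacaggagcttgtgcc
IFIT1: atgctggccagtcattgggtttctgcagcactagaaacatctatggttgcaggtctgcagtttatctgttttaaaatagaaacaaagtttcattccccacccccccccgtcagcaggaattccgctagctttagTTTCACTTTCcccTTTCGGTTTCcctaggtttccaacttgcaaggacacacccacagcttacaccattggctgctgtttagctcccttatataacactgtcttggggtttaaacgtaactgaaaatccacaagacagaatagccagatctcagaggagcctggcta

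The single match of ISG20 began 69 bases before the start site. The 2 matches of ISG15 overlapped, beginning 113 and 107 bases before it, and those of IFIT1, both on the other strand, began 116 and 103 bases before it. Promoter windows were found for 33 of the 40 genes, and not for IRF3, IRF7, IFIT2, OAS2, OASL, USP18 and MX2. The ISRE core was in a window of 22 of the 33 (66.7%), against 4.38% of the 27305 genes with a window. The median log2 fold change was 0.06 over the 13 tested genes with the ISRE core and 0.13 over the 8 without it. The core of the gamma-activated site, an element of genes that interferon gamma induces, was searched as TTCNNNGAA and was in 9 of the 33 (27.3%), against 9.38% of all genes. That median was 0.23 over the 5 tested genes with the gamma-activated core and 0.04 over the 16 without it. A match is a description of letters and not a binding site.

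Values are the deposited normalised read counts, on which 1 read is worth about 1 unit, and each fold change is the siGLI1 minus the siNT2 mean of log2(value + 1), a scale that understates the change of low genes. Libraries held 13784642 to 15477041 reads in siGLI1 cells and 13673977 to 18947614 in siNT2 cells. Genes with a mean of 10 or more over the 6 libraries were tested with limma, with Benjamini-Hochberg adjustment over all 15622 of them. GLI1 was at 579.9, 905.8 and 1274.1 in siGLI1 cells, against 11962.5, 17836.9 and 12774.1 in siNT2 cells, a log2 fold change of -3.996 (adjusted p = 0.000425 with limma). The muscle markers MYOD1, MYOG, DES, CDH15 and FGFR4 were high in all libraries, and the 10 markers of that list summed to 58839 to 90236 in siGLI1 cells and 56168 to 78785 in siNT2 cells. MYF5, of the same list, went the other way, with 2 reads over the siGLI1 libraries and 0 over the siNT2 libraries, and was not tested. Of the 9 tested markers of that list, DES, CHRNA1 and MYH3 rose in siGLI1 cells (log2 fold change 0.97, 0.62 and 1.36; adjusted p = 0.0153, 0.0112 and 0.0111 with limma). The 10 blood cell markers summed to 62.4 to 90.9 in siGLI1 cells and 58.2 to 72.0 in siNT2 cells. PTPRC, CLEC4C and HBB were at or near 0, while CD4, CD14 and CSF1R were read in every library. These 3 were the tested ones (log2 fold change -0.57, 0.71 and 0.22), and none was called. The 7 epithelial and endothelial markers summed to 191.2 to 200.5 in siGLI1 cells and 141.1 to 180.5 in siNT2 cells, and 1 of the 4 tested rose, the endothelial PECAM1 (log2 fold change 2.96, adjusted p = 0.00226 with limma). The others, EPCAM, KRT8 and KRT18, stood at -0.63, -0.83 and -0.21 and were not called, and the endothelial VWF had 15 reads over the siGLI1 libraries and 23 over the siNT2 libraries. The 5 fibroblast markers summed to 527.5 to 560.5 in siGLI1 cells and 421.9 to 547.8 in siNT2 cells, and 1 of the 4 tested rose, LUM (log2 fold change 0.96, adjusted p = 0.0484 with limma). With 1 library left out in turn the LUM call held in 0 of the 6 fits (adjusted p = 0.0555 to 0.195 with limma). COL1A1, PDGFRA and THY1 stood at 0.86, -0.25 and 0.01 and were not called. Of the tested markers 33.3% of the muscle, 25.0% of the epithelial and endothelial and 25.0% of the fibroblast list were called, against 15.2% of all genes. The part of these marker shifts in the values that follow was not tested.

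Few of the interferon-stimulated genes and sensors passed the test, and those that did went both ways. Of the 40 genes, 24 reached the test (60.0%, against 60.8% of the table), and 2 rose in siGLI1 cells (USP18 and ISG20) while 1 fell (HERC6). That is 12.5% of those tested, against 15.2% of all genes tested, of which 7.21% rose and 8.0% fell. The median log2 fold change of the 24 was 0.07, against -0.01 over all genes, with 14 above 0 and 10 below. The 3 libraries of one group lay apart from those of the other in 8 of the 24 (33.3%), against 36.2% of all genes tested, 4 higher and 4 lower in siGLI1 cells.

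**Figure D1:**
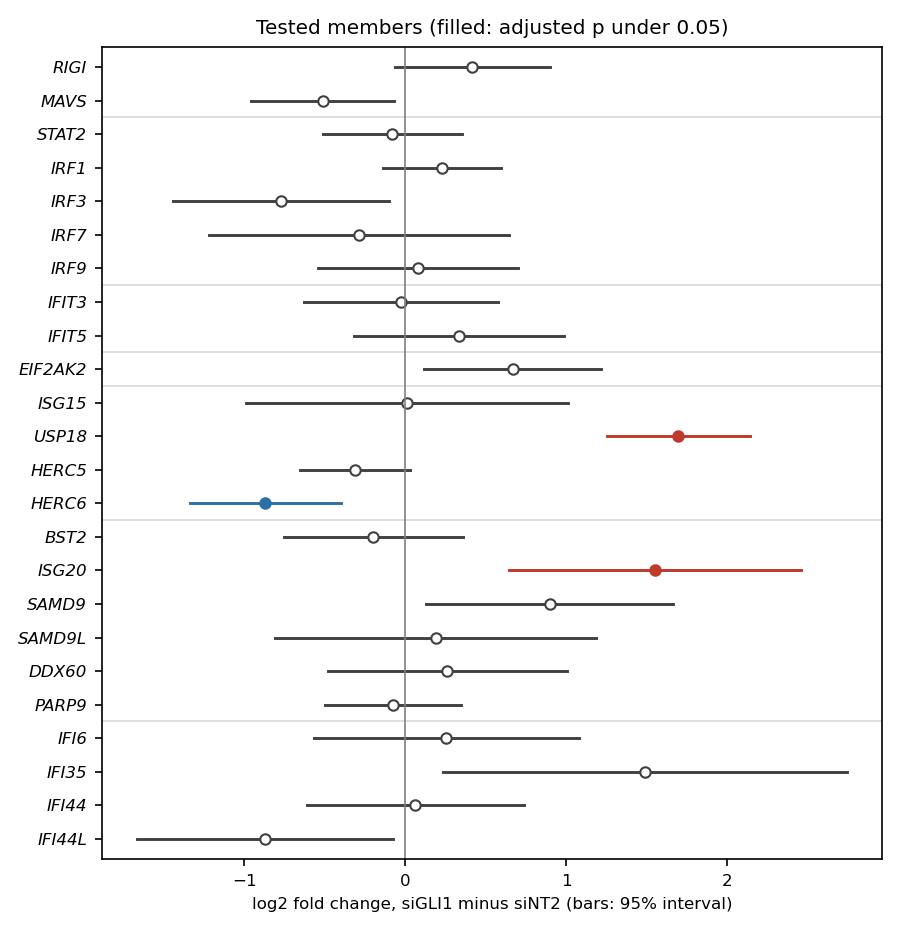
Log2 fold change, siGLI1 minus siNT2, of the 24 tested genes on the horizontal axis, grouped by role down the page, with 95% intervals from limma as bars. Filled points passed an adjusted p of 0.05: USP18 at 1.70, ISG20 at 1.55 and HERC6 at -0.87. The other points lie between -0.87 and 1.49.

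Several of the most familiar interferon-induced genes were barely read in either group. IFIH1, the sensor of long double-stranded RNA, and OAS1, OAS2, MX2, RSAD2 and CMPK2 had 0 reads in all 6 libraries, which is 15.0% of the set, against 12.9% of the genes of the table. An empty count is still compatible with as many as 3 reads, equal to 2.39 to 3.29 deposited units here. Another 5 genes were never above 3 reads in any library. Over the 16 untested genes the reads summed to 86 in the 3 siGLI1 libraries and 90 in the 3 siNT2 libraries. By library they summed to 30, 23 and 33 in siGLI1 cells and to 18, 22 and 50 in siNT2 cells. The groups overlapped, and the deepest library, siNT2 replicate 3, had the highest sum. A rise or fall of these genes below that level was not detectable at this depth.

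**Figure D2:**
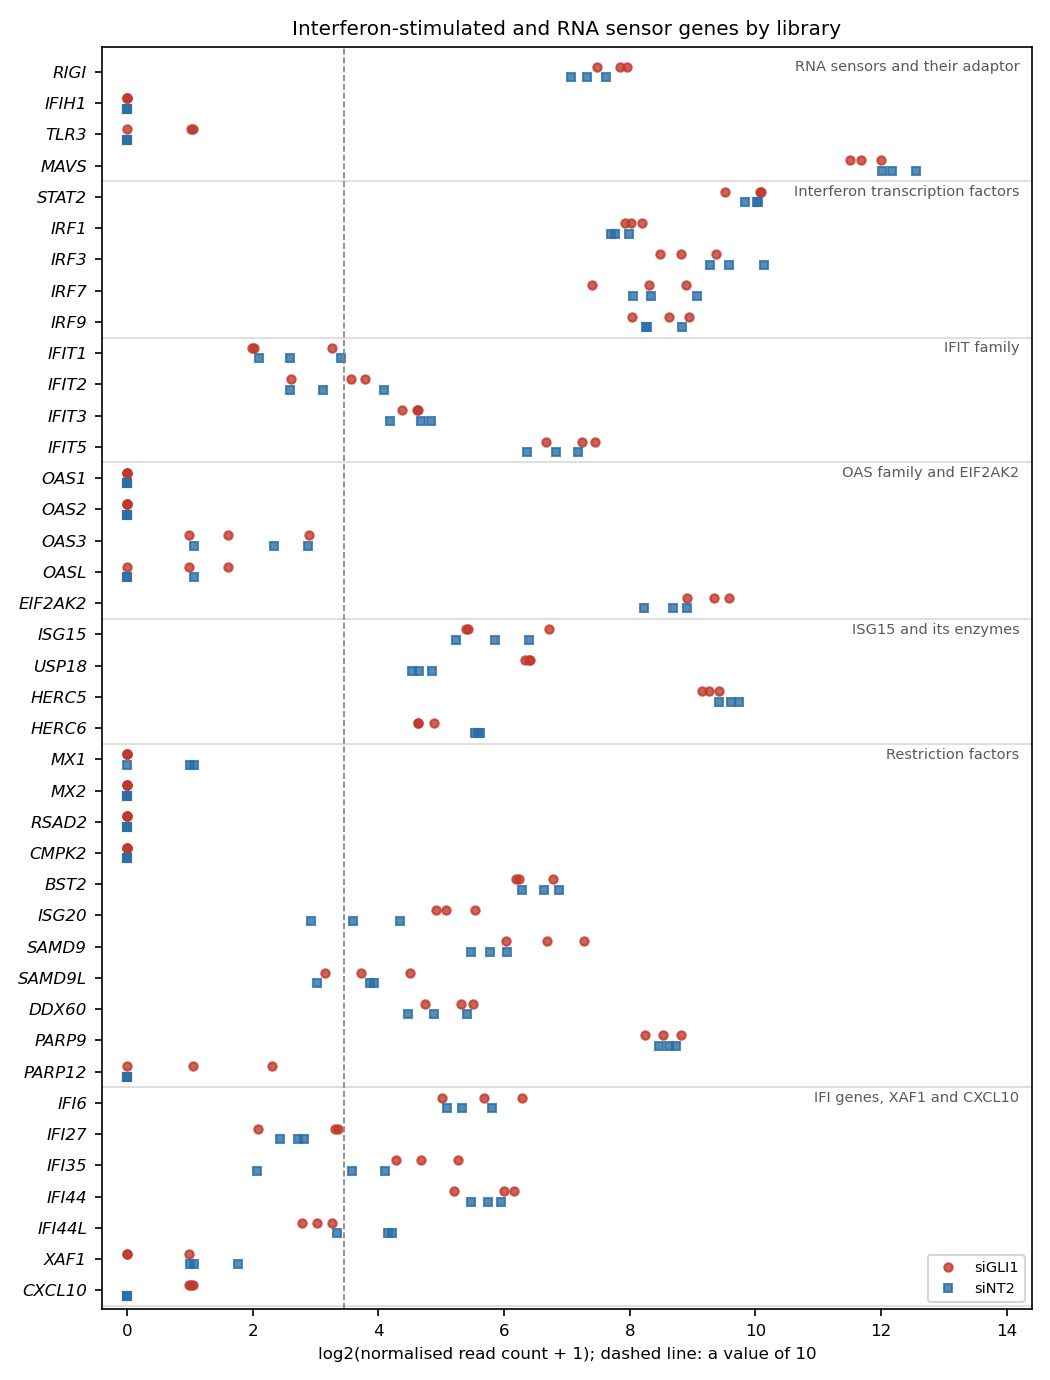
Normalised read count plus 1 (log scale) of each of the 40 genes in each library, with siGLI1 libraries beside siNT2 libraries, ordered by role. USP18 and ISG20 lie higher and HERC6 lower in all 3 siGLI1 libraries, and 6 genes lie at 0 throughout.

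The RNA sensors and their adaptor gave no call. RIGI, the sensor of short double-stranded RNA with a triphosphate end, was at 246.2, 228.0 and 176.8 in siGLI1 cells, against 159.2, 132.9 and 196.2 in siNT2 cells. The groups overlapped, since siGLI1 replicate 3 lay under siNT2 replicate 3, and its log2 fold change was 0.42, with a 95% interval of -0.07 to 0.90 and an adjusted p of 0.214 with limma. MAVS, the mitochondrial adaptor on which both cytosolic sensors depend, was at 2905, 3272 and 4110 in siGLI1 cells, against 4592, 6016 and 4120 in siNT2 cells. All siGLI1 libraries lay lower, but siGLI1 replicate 3 and siNT2 replicate 3 nearly met, and the difference of -0.51 on the log2 scale did not pass (95% interval -0.96 to -0.07, adjusted p = 0.110 with limma). TLR3 had 2 reads over the siGLI1 libraries and 0 over the siNT2 libraries.

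The 5 interferon transcription factors were all tested, and none was called. With limma 1 of them, IRF3, had an unadjusted p under 0.05, and neither edgeR nor DESeq2 called any. DESeq2 called 21.0% of all genes tested. Their share at an unadjusted p under 0.05 was not counted, and the 15.2% that passed the stricter adjusted test is only its lower bound. STAT2, which acts with IRF9 on the ISRE, was at 727.9, 1071 and 1090 in siGLI1 cells, against 909.2, 1046 and 1057 in siNT2 cells. The groups overlapped fully, and the log2 fold change was -0.08 (95% interval -0.51 to 0.35). IRF3, which is activated directly below MAVS and opens the interferon beta gene, was at 355.3, 451.9 and 662.7 in siGLI1 cells, against 759.9, 1128 and 617.2 in siNT2 cells. The highest siGLI1 library lay above the lowest siNT2 library, and the log2 fold change of -0.77 had an adjusted p of 0.114 with limma. IRF3 overlaps BCL2L12, whose own log2 fold change was -0.81 (adjusted p = 0.0714 with limma). Whether reads were counted by strand is not given in the sources used here, so reads of these neighbours may not be told apart. The same holds for the overlapping pairs EIF2AK2 and GPATCH11, PARP9 and DTX3L, and CXCL10 and ART3. IRF1, an early interferon-induced factor, stood at 0.23, IRF9 at 0.08 and IRF7, which amplifies the response, at -0.29 on the log2 fold change scale, with adjusted p-values from limma of 0.359, 0.870 and 0.662.

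The IFIT family, which binds viral RNA that lacks the cap of the host, gave no call. IFIT5 was its best-read member, at 173.9, 150.3 and 100.7 in siGLI1 cells, against 112.0, 81.1 and 144.3 in siNT2 cells. The groups overlapped, with a log2 fold change of 0.33 (95% interval -0.32 to 0.99). IFIT3, a partner that stabilises IFIT1, differed by -0.03 on the log2 scale (95% interval -0.63 to 0.58, adjusted p = 0.955 with limma). IFIT1, whose promoter holds the 2 ISRE cores printed above, stayed under the filter at 8.64, 3.07 and 2.96 in siGLI1 cells, against 3.29, 5.07 and 9.57 in siNT2 cells. IFIT2 lay just under it, at 10.8, 5.11 and 12.8 in siGLI1 cells, against 7.69, 5.07 and 15.9 in siNT2 cells. Neither gene separated the groups. All 4 IFIT genes overlap LIPA in RefSeq, a gene with a mean of 174.6 over the 6 libraries, so their values may hold reads of LIPA.

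Among the OAS enzymes, which make oligoadenylates when they bind double-stranded RNA, OAS1 and OAS2 were at 0, OASL had 3 reads over the siGLI1 libraries and 1 over the siNT2 libraries, and OAS3 had 9 in siGLI1 cells and 13 in siNT2 cells. EIF2AK2 (PKR), the kinase that double-stranded RNA activates to stop translation, was read well in every library. It was at 760.3, 647.1 and 479.0 in siGLI1 cells, against 411.8, 298.2 and 478.5 in siNT2 cells. All 3 siGLI1 libraries lay higher, the closest pair differing by under 1 unit. Its log2 fold change of 0.67 (95% interval 0.12 to 1.21) did not pass with limma (adjusted p = 0.0981) and passed with DESeq2 (adjusted p = 0.0469).

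Of the 4 members of the ISG15 system, all tested, USP18 rose and HERC6 fell, and 15.2% of all genes tested were called. ISG15 is a ubiquitin-like protein that UBA7 activates, UBE2L6 carries and HERC5 attaches to targets in human cells, while HERC6 is its main ligase in mouse. USP18 removes ISG15 and also blocks signalling at the type I interferon receptor. USP18 was at 84.2, 79.7 and 83.0 in siGLI1 cells, against 24.2, 22.3 and 27.9 in siNT2 cells. Every siGLI1 library was far above every siNT2 library, with means of 82.3 ± 2.32 in siGLI1 cells and 24.8 ± 2.85 in siNT2 cells (SD, n = 3 each). The log2 fold change was 1.70 (SE 0.19, 95% interval 1.25 to 2.14, adjusted p = 0.00205 with limma), which is 3.24-fold, and the call held with each library left out in turn.

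USP18 lies on chromosome 22 and has a near-identical copy there, USP41P, between which reads could be divided. USP41P was at 68.0, 53.2 and 56.3 in siGLI1 cells, against 29.6, 31.4 and 47.0 in siNT2 cells, with a log2 fold change of 0.72 (adjusted p = 0.0868 with limma). With the reads of both summed, the level was 152.3, 132.9 and 139.3 in siGLI1 cells, against 53.8, 53.8 and 75.0 in siNT2 cells. The sum rose by 1.22 on the log2 scale (adjusted p = 0.00760 with limma), so the size given for USP18 is uncertain while its direction was shared by both.

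HERC6, on chromosome 4, fell to 23.8, 28.6 and 23.7 in siGLI1 cells, against 48.3, 45.6 and 47.0 in siNT2 cells. The groups lay well apart, with means of 25.4 ± 2.83 in siGLI1 cells and 47.0 ± 1.34 in siNT2 cells (SD, n = 3 each) and a difference of -0.87 on the log2 scale (SE 0.20, 95% interval -1.34 to -0.40, adjusted p = 0.0273 with limma). With 1 library left out the log2 fold change stayed between -0.96 and -0.83, but the call held only without siGLI1 replicate 3, and the adjusted p from limma was 0.0465 to 0.109 over the 6 such fits. HERC5 was at 682.5, 612.4 and 563.9 in siGLI1 cells, against 849.9, 682.6 and 779.1 in siNT2 cells. The closest libraries, siGLI1 replicate 1 and siNT2 replicate 2, were almost level, and the log2 fold change of -0.31 was not called (adjusted p = 0.192 with limma).

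ISG15 itself was not called, and its libraries scattered widely. It was at 42.1, 40.9 and 103.7 in siGLI1 cells, against 57.1, 83.2 and 36.7 in siNT2 cells, so the highest value was in a siGLI1 library and the lowest in a siNT2 library. The log2 fold change was 0.01 (adjusted p = 0.986 with limma), with a 95% interval of -0.99 to 1.01 that reaches about 2-fold either way. UBE2L6, from the list of other interferon-induced genes, fell to 262.4, 231.0 and 306.2 in siGLI1 cells, against 482.1, 498.0 and 500.8 in siNT2 cells, a log2 fold change of -0.90 (adjusted p = 0.00937 with limma). UBA7, picked after its values were seen, was at 18.4, 24.5 and 48.4 in siGLI1 cells, against 13.2, 16.2 and 11.2 in siNT2 cells, with a log2 fold change of 1.01 (adjusted p = 0.111 with limma).

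**Figure D3:**
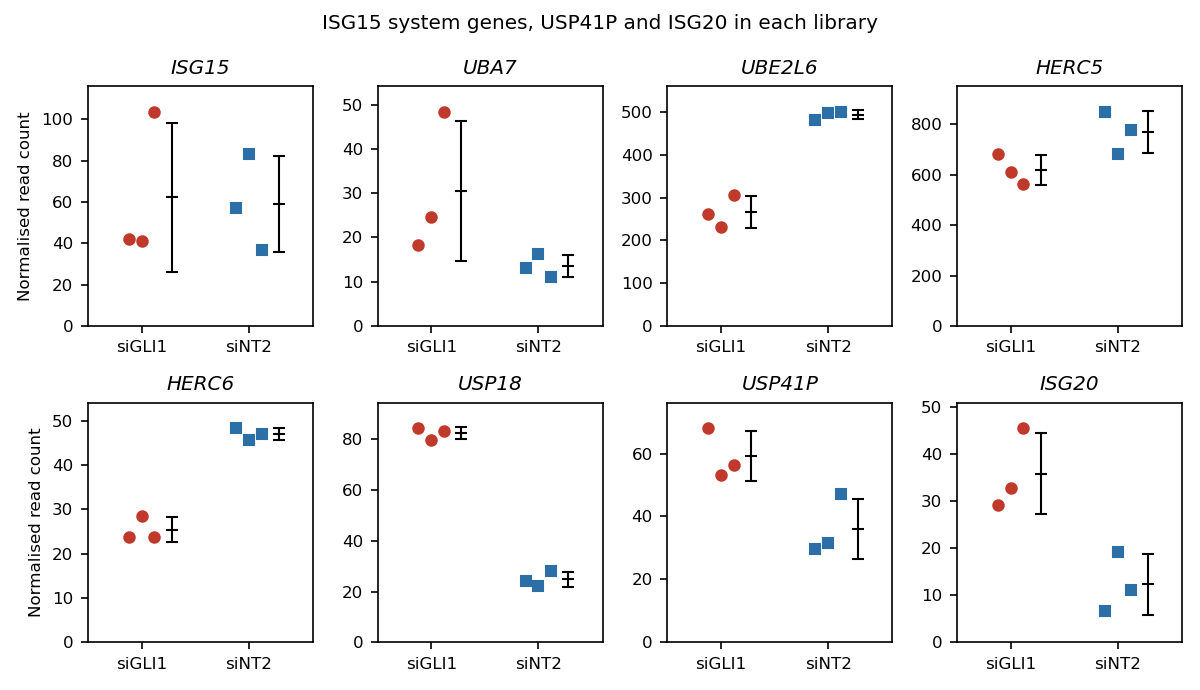
Normalised read count of ISG15, its conjugating enzymes, USP18, the USP18 copy USP41P and ISG20 in each library (points), siGLI1 on the left and siNT2 on the right of each panel, with the mean and SD of 3 libraries as a bar and every vertical axis starting at 0 with its own scale. USP18 stands at 79.7 to 84.2 in siGLI1 cells and 22.3 to 27.9 in siNT2 cells, HERC6 and UBE2L6 are lower in siGLI1 cells, and ISG15 overlaps.

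Among the restriction factors, ISG20, an exonuclease that degrades viral RNA, rose. It lies on chromosome 15 and was at 29.2, 32.7 and 45.4 in siGLI1 cells, against 6.59, 19.3 and 11.2 in siNT2 cells. No libraries overlapped, with means of 35.8 ± 8.56 in siGLI1 cells and 12.3 ± 6.42 in siNT2 cells (SD, n = 3 each). The log2 fold change was 1.55 (SE 0.39, 95% interval 0.65 to 2.46, adjusted p = 0.0358 with limma), or 2.93-fold. With 1 library left out it ranged over 1.20 to 1.91, and the call held only without siNT2 replicate 2 (adjusted p = 0.0174 with limma; 0.0511 to 0.123 in the other 5 fits).

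SAMD9, an inhibitor of viral and cell growth, was at 154.4, 102.2 and 64.2 in siGLI1 cells, against 53.8, 43.6 and 65.4 in siNT2 cells. siGLI1 replicate 3 fell among the siNT2 libraries, and the log2 fold change of 0.90 was not called with limma (adjusted p = 0.108), though DESeq2 called it (adjusted p = 0.0350). PARP9, which acts with DTX3L in DNA damage and interferon responses, was the best-read gene of this role at 450.3, 367.0 and 303.2 in siGLI1 cells, against 394.2, 352.9 and 423.4 in siNT2 cells. Its groups overlapped (log2 fold change -0.08). BST2, which tethers budding virus to the cell, SAMD9L and the helicase-like DDX60 had log2 fold changes of -0.20, 0.19 and 0.26, none called with limma (adjusted p = 0.608, 0.796 and 0.615). MX1, the dynamin-like GTPase that is a standard marker of interferon exposure, had 0 reads in siGLI1 cells and 2 in siNT2 cells, and PARP12 had 5 in siGLI1 cells and 0 in siNT2 cells.

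Of the IFI genes, IFI44 had the highest mean, at 70.2, 35.8 and 63.2 in siGLI1 cells, against 52.7, 43.6 and 60.6 in siNT2 cells, and its groups overlapped (log2 fold change 0.06). IFI35, which pairs with NMI, was at 18.4, 24.5 and 37.5 in siGLI1 cells, against 10.98, 16.2 and 3.19 in siNT2 cells. All siGLI1 libraries were higher, but the scatter was large and the log2 fold change of 1.49 (95% interval 0.23 to 2.74) was not called (adjusted p = 0.105 with limma). IFI44L was at 8.64, 7.16 and 5.93 in siGLI1 cells, against 17.6, 9.13 and 16.7 in siNT2 cells. Here all siGLI1 libraries were lower, and the log2 fold change of -0.87 was likewise not called (adjusted p = 0.127 with limma). IFI44L was the least-read gene to reach the test, with a mean of 10.9 over the 6 libraries, next to IFIT2 at 9.58 just under the filter.

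IFI6, which protects mitochondria in interferon-treated cells, differed by 0.25 on the log2 scale (adjusted p = 0.660 with limma). IFI27 had 21 reads over the siGLI1 libraries and 17 over the siNT2 libraries. XAF1, an antagonist of an apoptosis inhibitor, had 1 read in siGLI1 cells and 5 in siNT2 cells. CXCL10, a chemokine that interferon gamma and RNA sensing both induce strongly, had 1 read in each siGLI1 library and 0 in each siNT2 library, within what a count of 0 allows.

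Per kilobase of transcript, the best-read tested genes in siGLI1 cells were STAT2, MAVS and IRF3. STAT2 stood at 296 units per kilobase in siGLI1 cells and 308 in siNT2 cells, MAVS at 293 in siGLI1 cells and 419 in siNT2 cells, and IRF3 at 281 in siGLI1 cells and 480 in siNT2 cells. In siGLI1 cells these 3 did not differ beyond their spread over libraries. ISG15 was at 79.1 in siGLI1 cells and 74.9 in siNT2 cells on the same scale, and USP18 at 38.7 in siGLI1 cells and 11.6 in siNT2 cells, which placed USP18 14th of the 24 in siGLI1 cells and 17th in siNT2 cells. ISG20 was at 19.3 in siGLI1 cells and 6.65 in siNT2 cells, HERC6 at 6.71 in siGLI1 cells and 12.4 in siNT2 cells. IFI44L stood at 1.23 in siGLI1 cells and 2.47 in siNT2 cells. On this scale STAT2, MAVS, IRF3, IRF9, HERC5 and IRF7 were the highest 6 in siGLI1 cells. The adaptor and 4 of the 5 transcription factors thus stood above nearly all effectors, an order that depends on the transcript taken. Lengths were those of the longest coding transcript of each gene, 10042 bases for EIF2AK2 and 1741 for IRF3. By deposited value EIF2AK2, with a mean of 512.5 over the 6 libraries, stood above IRF9 (368.4) and IRF7 (347.7). It stayed below MAVS, STAT2 and IRF3. In bulk RNA, fewer cells expressing a gene and less RNA per cell cannot be told apart.

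GC content moved with the scatter inside both groups and, less closely, with the difference between them. Over all tested genes with a known GC content, its rank correlation with the log2 fold change was -0.29. Over the 24 tested genes, whose transcripts ranged over 36.0% to 66.8% GC, the rank correlation of GC content with a library's deviation from its group was -0.93, -0.31 and 0.93 in siGLI1 replicates 1, 2 and 3, and -0.44, 0.92 and -0.89 in siNT2 replicates 1, 2 and 3. These are descriptions across genes that share their libraries, and over all genes the same correlations were -0.70, -0.31 and 0.75 in siGLI1 cells and -0.49, 0.70 and -0.60 in siNT2 cells. Among the 11 genes under 45% GC, which include EIF2AK2, SAMD9 and RIGI, siGLI1 replicate 3 was the lowest of its group in 10 and siNT2 replicate 2 in 11. Among the 12 genes at 50% GC or more, which include ISG15, IRF3 and MAVS, siGLI1 replicate 3 was the highest of its group in 11 and siNT2 replicate 2 in 9.

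**Figure D4:**
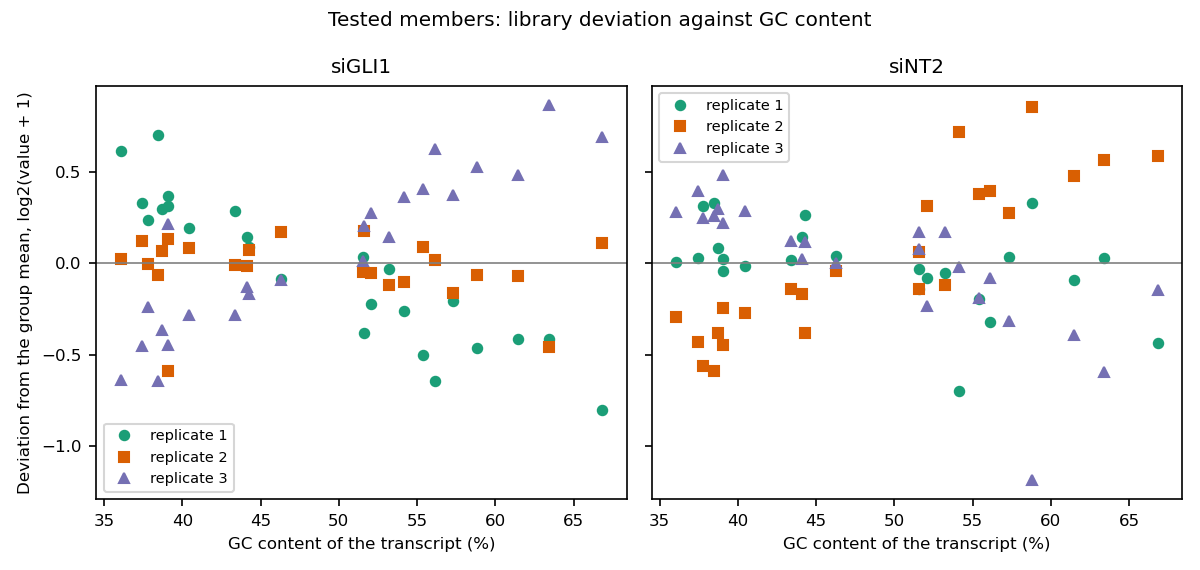
Deviation of each library from its group mean on the log2(value + 1) scale, against the GC content (%) of the transcript, for the 24 tested genes, siGLI1 on the left and siNT2 on the right. siGLI1 replicate 3 and siNT2 replicate 2 climb with GC content (rank correlation 0.93 and 0.92), and siGLI1 replicate 1 and siNT2 replicate 3 descend (-0.93 and -0.89).

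The GC trend was then taken out of each library, fitted on its deviation from the mean of all 6 libraries. GC-linked differences between the groups were therefore taken out as well. All 3 calls remained, and 5 of the 24 genes were higher and 5 lower in siGLI1 cells, against 34.1% of all genes called in that fit. EIF2AK2 (log2 fold change 0.47, adjusted p = 0.00773 with limma), SAMD9 (0.65, 0.0252) and IFI35 (1.67, 0.0179) joined USP18 and ISG20. IRF3 (-0.55, 0.00868), HERC5 (-0.40, 0.0107), IFI44L (-1.09, 0.0206) and MAVS (-0.46, 0.0372) joined HERC6. The 2 directions were then equal in number, and the kinase EIF2AK2 stood opposite to the adaptor MAVS and the factor IRF3. The part of GC-linked library differences in the uncorrected values was not tested further. DESeq2 called 4 of the 24 higher and 1 lower, against 21.0% of all genes, and limma with library weights called 8 higher and 6 lower, against 53.0% of all genes, so neither share can be read against the 15.2% of the main test.

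The rest of the interferon pathway was read from 131 listed genes that are not among the 40. The 11 interferon genes, among them IFNB1, IFNE, IFNL1 and IFNG, had 10 reads over the siGLI1 libraries and 1 over the siNT2 libraries, and none was tested. By library their reads summed to 1, 3 and 6 in siGLI1 cells and to 0, 1 and 0 in siNT2 cells, where a few reads decide the sum. The receptor and JAK-STAT genes, such as IFNAR1 and JAK1, were read well, and 0 of the 10 tested were called (median log2 fold change 0.30). Of them 3 had an unadjusted p under 0.05 with limma, and edgeR called 0 and DESeq2 1. Over all genes tested DESeq2 called 21.0%. The share of all genes at an unadjusted p under 0.05 was not counted. The 15.2% that passed the stricter adjusted test is only its lower bound, so 3 of 10 cannot be called high or low against it.

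Of the 21 tested genes that relay RNA sensing, such as TRIM25 and TBK1, limma called 0 (median 0.05; 4 at an unadjusted p under 0.05, 0 by edgeR, 2 by DESeq2). Of the 10 tested negative regulators, such as SOCS1 and PTPN2, it also called 0 (median 0.29, 3 at an unadjusted p under 0.05, 0 by edgeR, 1 by DESeq2). The DESeq2 counts stand against 21.0% of all genes. For the counts at an unadjusted p under 0.05 the share of all genes was not counted. The 15.2% past the adjusted test is only its lower bound, so these counts cannot be called high or low against it. Together with the effector, antigen presentation and cytokine lists, 84 of the 131 genes were tested, and 6 rose and 3 fell, 10.7% against the 15.2% of all genes.

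Of 28 tested effectors outside the 40, 3 rose and 2 fell (17.9%, against 15.2% of all genes), with a median log2 fold change of 0.02. UBE2L6 fell, as above. APOL6, an interferon-induced apolipoprotein L, was at 428.7, 314.9 and 254.8 in siGLI1 cells, against 180.1, 93.3 and 153.9 in siNT2 cells (log2 fold change 1.24, adjusted p = 0.0287 with limma). TRIM21, a cytosolic antibody receptor, rose by 0.61 and ZNFX1, a helicase that senses viral RNA, by 0.43 on the log2 scale (adjusted p = 0.0357 and 0.0405 with limma).

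Of 10 tested antigen presentation genes, 2 rose and 0 fell (20.0%, against 15.2% of all genes), while the median was -0.10. HLA-E, a non-classical class I molecule read by natural killer cells, was at 842.4, 845.5 and 988.6 in siGLI1 cells, against 449.1, 490.9 and 476.9 in siNT2 cells. The groups were well apart, the log2 fold change was 0.91 (adjusted p = 0.00544 with limma), and the call held with each library left out. NLRC5, the transactivator of class I genes, rose to 79.9, 87.9 and 113.6 in siGLI1 cells, against 49.4, 49.7 and 32.7 in siNT2 cells (log2 fold change 1.09, adjusted p = 0.0242 with limma). Of 5 tested cytokine genes, CCL2, a monocyte chemokine, fell to 8.64, 4.09 and 5.93 in siGLI1 cells, against 18.7, 19.3 and 22.3 in siNT2 cells (log2 fold change -1.59, adjusted p = 0.0168 with limma). LIF, a cytokine of the interleukin-6 family, rose by 0.88 (adjusted p = 0.0415 with limma). With 1 library left out in turn, the call held in 4 of the 6 fits for UBE2L6, 3 for NLRC5 and CCL2, 2 for LIF, 1 for APOL6 and ZNFX1, and 0 for TRIM21.

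**Figure D5:**
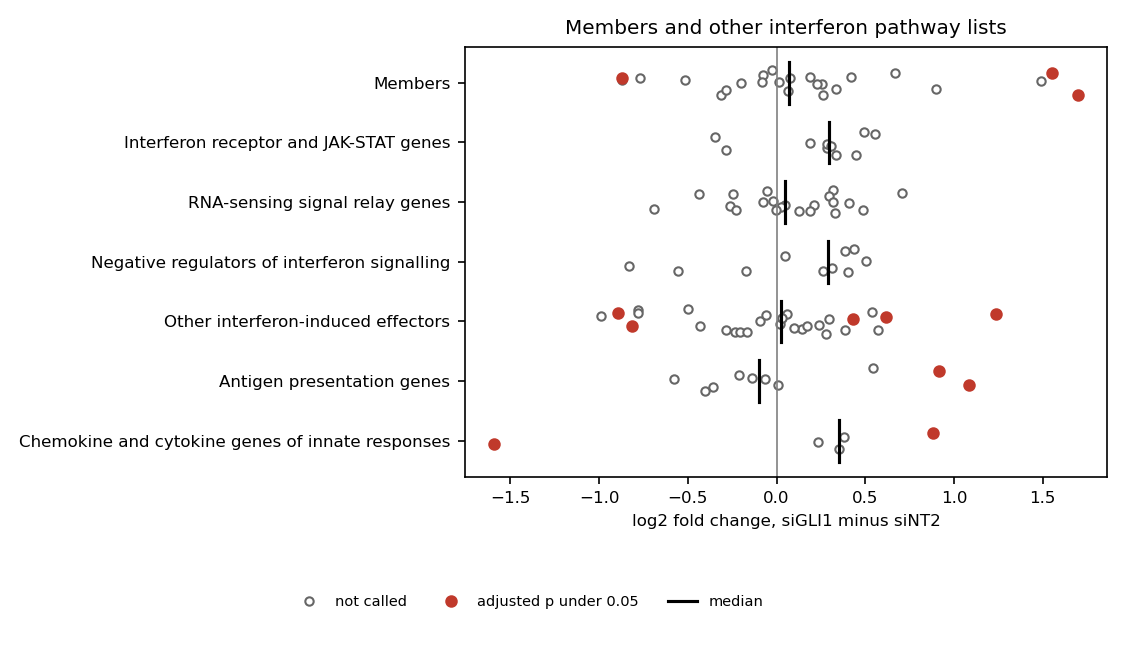
Log2 fold change, siGLI1 minus siNT2, of the tested genes of the set and of each pathway list, 1 point a gene, with the list's median as a bar and filled points past an adjusted p of 0.05. Medians lie between -0.10 and 0.35, and called genes lie on both sides of 0.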

How the data were processed

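RNA from 6 RMS13 libraries was sequenced. The authors deposited a signal value per gene, read counts divided by 1 size factor per library, not by length. Tools listed in the submitters' processing notes are DESeq2 2.11.40.6, featureCounts of Subread 1.6.4, Bowtie2 2.3.3.1 (build hg19), Trim Galore 0.4.5 and bcl2fastq. The strand setting, annotation and handling of multiply matching reads were not given in the sources used here. Values were whole multiples of 1 read within 0.01 reads, so whole reads were recovered for the count tests. No pair of libraries of the same group agreed within sampling noise (chi-square per gene 9.68 to 60.4). Floors cover counting error only.

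Symbols came from RefSeq (GRCh38.p14, 92.2% of IDs matched), and GC content and length from GENCODE 29. Both are those of the longest transcript of a gene, coding transcripts first. The main test was limma 3.58.1 in R 4.3.3 (eBayes with trend) on log2(value + 1), genes with a mean of 10 or more, Benjamini-Hochberg adjustment over all of them, threshold 0.05. Alternatives were edgeR 4.0.16 quasi-likelihood, DESeq2 1.42.0, pseudocounts of 0.5 and 8, no filter, a filter at 50, TMM scaling, library weights, a replicate block, a GC correction (lowess, span 0.3) and each library left out. Summing USP18 and USP41P reads was added after the data were seen. The code was tested on simulated data.

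The 40 genes and all lists were chosen with earlier results of these data known. All 40 are accounted for. Called genes and the best-read of each role have values by library, and of each pathway list at most 4 called genes with the smallest p are named. Per-library values of other genes were given after they were seen. Some listed genes are not reported here.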

Additional observations from a re-analysis of the deposited data

How the results depend on the processing

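All 24 tested genes kept direction and call with edgeR, TMM scaling, pseudocounts of 0.5 and 8 and no filter. DESeq2 called 4 higher and 1 lower among the 40, 11 and 3 among pathway genes, and 1645 and 1634 of all genes (21.0%). A filter at a mean of 50, which leaves out ISG20 and HERC6, called 1 higher and 0 lower. Library weights, which ranged from 0.290 to 6.14, called 8 higher and 6 lower among the 40, 31 and 13 among pathway genes, and 4059 and 4215 of all genes (53.0%). The GC correction called 5 and 5, 13 and 9, and 2515 and 2409 (34.1%). Combined with the replicate block it called 4 and 4, 12 and 8, and 2012 and 1923 (27.3%). MAVS and SAMD9 were then no longer called (adjusted p = 0.0628 and 0.0559 with limma).

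Same-numbered libraries of the groups share a number and the first part of a code in the sample descriptions, whose meaning the labels do not give. Their deviations correlated at 0.49, -0.11 and -0.61, and only siNT2 replicate 1 correlated best with its own number. The highest value was 0.76, between siGLI1 replicate 3 and siNT2 replicate 2. The replicate block alone called 1 higher and 0 lower among the 40 (USP18, adjusted p = 0.0168 with limma), 2 and 0 among pathway genes (APOL6 and HLA-E), and 462 and 508 of all genes. With that block the adjusted p from limma was 0.0564 for ISG20, 0.0966 for HERC6 and 0.0503 for UBE2L6, and 0.0503 to 0.166 for the 7 pathway genes no longer called.

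With 1 library left out, 1 to 3 of the 40 genes were higher and 0 to 3 lower, 1 to 7 and 0 to 3 pathway genes, and 283 to 1562 and 358 to 1705 of all genes. Log2 fold changes then ranged over both signs for STAT2 (-0.18 to 0.11), IRF7 (-0.63 to 0.11), IRF9 (-0.13 to 0.33), IFIT3 (-0.22 to 0.10), ISG15 (-0.42 to 0.29), SAMD9L (-0.16 to 0.51), PARP9 (-0.22 to 0.063), IFI6 (-0.059 to 0.58) and IFI44 (-0.12 to 0.36). With library weights the log2 fold change was 0.15 for STAT2, 0.11 for IRF7, -0.35 for ISG15, -0.10 for SAMD9L and -0.45 for IFI44. After the GC correction, with or without the block, it was 0.013 for IRF7, -0.0094 for SAMD9L and -0.12 for IFI44. None of these genes was called with limma in the main comparison, and the cause of these changes was not tested. The 16 untested genes had too few reads for a test at this depth.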

Other observations

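In the pathway lists 3 genes, picked after their values were seen, were under the filter and were called when no filter was used. ETV7, an interferon-induced repressor, had 5, 7 and 9 reads in siGLI1 cells and 1, 0 and 1 in siNT2 cells (log2 fold change 2.37, adjusted p = 0.00941 with limma). CXCL8, a neutrophil chemokine, had 15, 13 and 5 reads in siGLI1 cells and 0, 1 and 3 in siNT2 cells (2.58, adjusted p = 0.0245 with limma). CCL5 had 8, 5 and 5 reads in siGLI1 cells and 2, 1 and 2 in siNT2 cells (1.46, adjusted p = 0.0386 with limma). All 3 were higher in 3 of 3 siGLI1 libraries, at counts where a few reads decide the value. Without the filter more genes entered the adjustment, and TRIM5, ZNFX1 and LIF were no longer called (adjusted p = 0.0515, 0.0537 and 0.0603 with limma), so pathway calls were 7 higher and 2 lower, against 6 and 3 with the filter. Of all 22393 genes in the fit without a filter, 1359 were called higher and 1226 lower.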
